A study of Mus musculus with 9 samples.

Results

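The genes described here encode the machinery of the cytotoxic granule: the granzymes Gzma, Gzmb, Gzmc, Gzmd, Gzme, Gzmf, Gzmk and Gzmm, the pore-forming protein perforin (Prf1) and the granule membrane protein Nkg7. They were taken by gene symbol, 10 genes in all, from the 22180 named genes on the array, with the probe set of highest mean level standing for each gene. Of the 10 genes 9 had a probe set of their own. Gzme had none, and was read only on a probe set that the annotation assigns to both Gzme and Gzmd, so its transcript could not be told apart from that of Gzmd.

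The arrays measured RNA of CD4 T cells after 60 h of culture under conditions that induce Th17 cells, the helper T cells that secrete IL-17. There were 3 groups of 3 arrays: SRG3 cKO (conditional knockout of SRG3, the Swi/Snf chromatin remodeller subunit that Smarcc1 encodes), RORγt KO (knockout of RORγt, the transcription factor that directs Th17 differentiation) and WT. In each group, naive T cells (CD4+, CD25-, CD44 low, CD62L high) were sorted from spleen and stimulated on plates coated with antibodies to CD3 and CD28 (10 µg/ml each), with TGF-β1 at 1 ng/ml, IL-6 at 30 µg/ml as labelled, and 2 µg/ml each of antibodies that block IL-4 and IFN-γ. The Cre driver of the SRG3 deletion and the strain and age of the mice are not given in the sources used here. The labels call the arrays of a group biological replicates without naming separate mice or cultures, so the p-values cover only the spread among these arrays, which may be technical.

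Cytotoxic lymphocytes store granzymes, which are serine proteases, with perforin in secretory lysosomes. On contact with a target cell the granules fuse with the plasma membrane, perforin opens a path into the target, and the granzymes cleave proteins there. Granzyme B cuts after aspartate and can activate caspases, whereas granzymes A and K are trypsin-like, and NKG7 takes part in granule release. CD8 T cells and NK cells are the usual producers, but activated CD4 T cells can also make granzyme B.

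The level of every array was on one scale, with medians of 7.12 to 7.14 on the log2 scale. Smarcc1 had log2 levels of 8.47 to 8.79 in the SRG3 cKO arrays, against 10.13 and above in the WT arrays, a 3.15-fold fall (adjusted p = 0.000207). The RORγt KO label was not checked by its own transcript, but of 6 Th17 genes 5 fell in that group (Il17a, Il17f, Il23r, Il1r1 and Ccr6), Il17a by 3.85 on the log2 scale (adjusted p = 0.000143), while Rora rose by 0.36 (adjusted p = 0.04999). In SRG3 cKO cells Il17a, Il17f and Il23r fell, with a log2 difference of -2.19 for Il17a. None of 5 markers of CD4 T cells passed in any comparison. In SRG3 cKO against WT, Thy1, Cd3g, Cd3e and Cd4 lay at 0.27, 0.23, 0.18 and 0.18, with Cd3g close to the threshold (adjusted p = 0.0509). Of the 5 markers 2, 1 and 1 had an unadjusted p under 0.05 in SRG3 cKO against WT, RORγt KO against WT and SRG3 cKO against RORγt KO. Their levels averaged 11.06 to 11.25, 11.01 to 11.13 and 10.87 to 11.11 over the SRG3 cKO, RORγt KO and WT arrays. On the first principal component of all genes (28.8% of the variance) SRG3 cKO array 1, RORγt KO array 3 and WT array 1 lay apart from the other arrays of their groups, and results that rest on them are given below without them. Without these 3 arrays Il17a, Il17f and Il23r did not pass in SRG3 cKO against WT (adjusted p = 0.138, 0.247 and 0.184). When 1 array was left out, Il17f lost that call in 8 of 9 cases, Il23r in 7 and Il17a in 0. Rora lost its call in RORγt KO against WT in 7 of the 9. A gene is said here to rise or fall only where its adjusted p in the limma fit of all 9 arrays was under 0.05.

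The promoter sequences of Gzmb and Nkg7 are shown because these are the members that changed, and those of Gzmd and Gzme because their transcripts share a probe set. Each is the RefSeq window of GRCm38.p6 that runs from 250 bases before to 50 bases after the annotated start, 5′ to 3′ on the strand of the gene. The windows are chr14:56262285-56262584 on the minus strand for Gzmb, chr7:43436888-43437187 on the plus strand for Nkg7, chr14:56132544-56132843 on the minus strand for Gzmd and chr14:56120576-56120875 on the minus strand for Gzme. Capitals mark matches, on either strand, to 5 motifs: AGGTCA (the ROR half-site), TGTGGT (Runx), GGTGTG (the T-box core), TTCNNNGAA (STAT) and TGANTCA (AP-1). No matches overlapped in these windows.
Gzmb: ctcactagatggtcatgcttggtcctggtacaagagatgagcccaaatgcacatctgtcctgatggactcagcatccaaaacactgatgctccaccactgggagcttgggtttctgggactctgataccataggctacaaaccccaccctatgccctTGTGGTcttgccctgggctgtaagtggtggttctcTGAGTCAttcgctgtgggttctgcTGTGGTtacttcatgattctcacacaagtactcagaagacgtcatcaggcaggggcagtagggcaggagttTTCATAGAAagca
Nkg7: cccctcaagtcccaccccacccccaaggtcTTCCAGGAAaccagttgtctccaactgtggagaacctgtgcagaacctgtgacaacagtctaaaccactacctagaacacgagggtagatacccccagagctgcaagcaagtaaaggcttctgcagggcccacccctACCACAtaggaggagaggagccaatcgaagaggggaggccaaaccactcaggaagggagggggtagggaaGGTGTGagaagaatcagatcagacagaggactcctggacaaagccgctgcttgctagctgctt
Gzmd: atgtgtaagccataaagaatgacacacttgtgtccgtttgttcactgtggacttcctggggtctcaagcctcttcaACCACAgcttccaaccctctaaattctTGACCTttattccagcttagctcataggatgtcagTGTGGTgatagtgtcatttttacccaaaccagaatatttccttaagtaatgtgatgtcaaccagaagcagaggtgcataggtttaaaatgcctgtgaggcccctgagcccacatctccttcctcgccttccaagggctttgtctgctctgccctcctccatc
Gzme: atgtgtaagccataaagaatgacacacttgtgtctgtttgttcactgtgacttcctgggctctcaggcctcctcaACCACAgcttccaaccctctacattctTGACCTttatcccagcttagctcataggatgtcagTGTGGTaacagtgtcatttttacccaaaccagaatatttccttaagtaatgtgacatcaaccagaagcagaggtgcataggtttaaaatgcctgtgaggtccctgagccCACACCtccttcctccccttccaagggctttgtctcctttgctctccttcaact

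Gzmb held 2 Runx matches with their first bases at positions -93 and -34 from the start, an AP-1 match at -58 and a STAT match at 38. Nkg7 held a Runx match on the opposite strand at -83, a T-box match at -13 and a STAT match at -220. Neither window held AGGTCA, and nor did those of Gzma, Gzmf, Gzmk and Prf1, which did not pass in any comparison. The windows of Gzmc, Gzmd and Gzme each held 1 AGGTCA match and 2 Runx matches. Gzmf also held 2 Runx matches, and Gzmm held AGGTCA in only 1 of its windows. Over all 32851 RefSeq promoter windows of this length, AGGTCA was found in 16.3%, TGTGGT in 16.8% and GGTGTG in 19%. TTCNNNGAA was found in 8.3% and TGANTCA in 7.81%. Each share counts windows with at least 1 match, and none was computed for 2 Runx matches. The Gzmd and Gzme windows were identical at 281 of 300 aligned bases (93.7%), whereas the Gzmb window shared 51.5% of aligned bases with the Nkg7 window and 54% to 56% with those of Gzmc, Gzmd, Gzme, Gzmf and Gzmg. The binding of any factor to these sequences was not measured here.

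In RORγt KO cells Gzmb and Nkg7 rose, and no other granule gene passed the test. Gzmb had log2 levels of 9.04, 9.55 and 9.14 in the RORγt KO arrays, against 8.53, 8.59 and 8.31 in the WT arrays. Every RORγt KO array lay above every WT array. The mean was 9.24 ± 0.27 in RORγt KO cells and 8.48 ± 0.15 in WT cells (SD, n = 3 each), a log2 difference of 0.77 or 1.70-fold (SE 0.15, 95% interval 0.43 to 1.10). The adjusted p of 0.04999 lay at the threshold itself.

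Nkg7 showed a smaller but tighter difference. Its log2 level was 9.04, 9.18 and 8.90 in the RORγt KO arrays, against 8.62, 8.47 and 8.60 in the WT arrays. Again the groups did not overlap. The means were 9.04 ± 0.14 in RORγt KO cells and 8.56 ± 0.08 in WT cells, a log2 difference of 0.48 or 1.39-fold (SE 0.07, 95% interval 0.32 to 0.64, adjusted p = 0.0187). These 2 rises among 9 measured members compare with 1.04% of all genes called in this comparison and 0.694% called higher. In 6.9% of all genes the RORγt KO arrays lay wholly above the WT arrays, as they did for these 2 members. In RNA from whole cultures, the number of cells that express a gene and the amount of its RNA per cell cannot be told apart.

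Prf1, which encodes perforin, did not pass in RORγt KO cells. Its log2 level was 8.29, 8.37 and 7.96 in the RORγt KO arrays, against 8.16, 8.10 and 7.94 in the WT arrays. The groups overlapped because RORγt KO array 3 lay near the lowest WT array. The log2 difference of 0.14 had a 95% interval of -0.08 to 0.37 (adjusted p = 0.612). Another probe set, annotated to Prf1 together with COX2, was not used for Prf1.

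**Figure D1:**
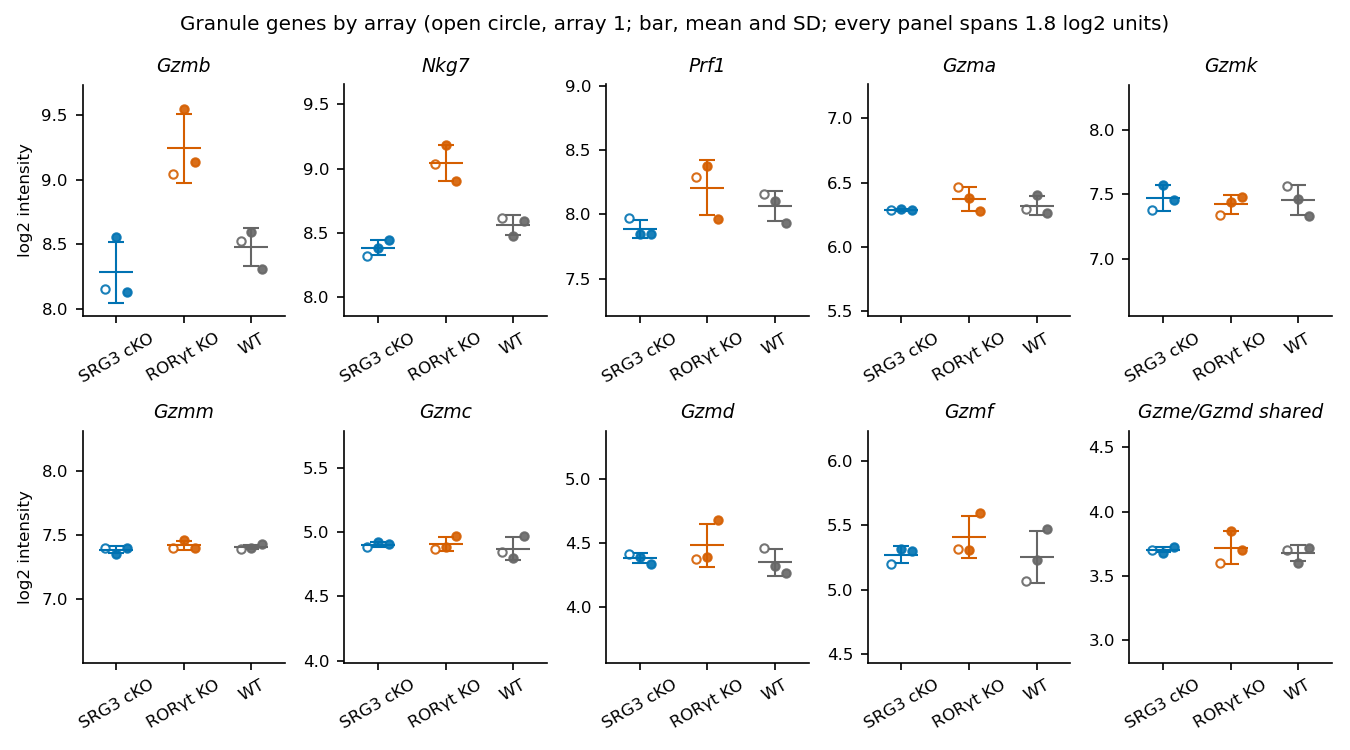
Log2 intensity of each granule gene by array (points; open circle, array 1) in SRG3 cKO, RORγt KO and WT cells, with the group mean and SD (n = 3 each) as bars. Gzmb and Nkg7 lie above the WT arrays in all 3 RORγt KO arrays, whereas the groups overlap for the other granzymes and for Prf1.

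The other granzymes did not pass in RORγt KO cells, and their log2 differences from WT were small. Gzma, a tryptase granzyme, averaged 6.37 ± 0.09 in RORγt KO cells and 6.32 ± 0.07 in WT cells, a difference of 0.05 (adjusted p = 0.751). Gzmk, the other tryptase granzyme, had a difference of -0.03 (adjusted p = 0.895) and Gzmm, for granzyme M, one of 0.01 (adjusted p = 0.921). Of the granzymes encoded beside Gzmb, Gzmc differed by 0.04, Gzmd by 0.13 and Gzmf by 0.15 (adjusted p = 0.826, 0.549 and 0.600), and the probe set shared by Gzme and Gzmd by 0.04 (adjusted p = 0.875). Over the 7 members that did not pass, the 95% intervals ran from -0.19 (Gzmk) to 0.39 (Gzmf), so the fit set a limit of 1.31-fold on a rise and of 1.14-fold on a fall for these probe sets. The median log2 difference over the 9 members was 0.13, against -0.003 over all genes, and 8 of the 9 differences were above 0. That median is the value of Gzmd, a dim probe set with RORγt KO arrays at 4.38, 4.39 and 4.68. With 1 array left out Gzmd lay as low as 0.04, and over the alternatives Gzmf lay between -0.03 and 0.26. The members were not tested as a set.

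How bright a probe set is bears on what it can show. The Gzmb and Nkg7 probe sets were brighter on average than 81.7% and 81.6% of all probe sets, and that of Prf1 brighter than 72%. Gzmk and Gzmm lay near the middle, above 58.7% and 57.6%, and Gzma above 29.2%. Gzmf, Gzmc, Gzmd and the shared Gzme and Gzmd probe set were among the dimmest, above 13.9%, 10.1%, 6.66% and 2.43% of probe sets. A dim probe set may have little of its transcript to measure, which was not tested here.

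In SRG3 cKO cells no granule gene passed the test. By limma 0 of the 9 measured members changed, where 0.523% of all genes were called (116, or 195 with the replicate number as a block, which also left the members at 0), and 1 member, Nkg7, had a p under 0.05 before adjustment, as did 2480 genes in all (11.2%). Nkg7 had log2 levels of 8.33, 8.39 and 8.44 in the SRG3 cKO arrays, against 8.62, 8.47 and 8.60 in the WT arrays. All SRG3 cKO arrays lay below all WT arrays, as they did for 6.56% of all genes. The log2 difference was -0.18 (95% interval -0.34 to -0.02, adjusted p = 0.401).

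Gzmb and Prf1 lay slightly lower in SRG3 cKO cells than in WT cells, with overlapping arrays. Gzmb had log2 levels of 8.16, 8.56 and 8.13 in the SRG3 cKO arrays, against 8.53, 8.59 and 8.31 in the WT arrays. The log2 difference was -0.20 (95% interval -0.53 to 0.14, adjusted p = 0.677). For Prf1 the level was 7.97, 7.85 and 7.85 in the SRG3 cKO arrays, below 2 of the 3 WT values given above, and the difference was -0.18 (95% interval -0.40 to 0.05, adjusted p = 0.559). The other 6 members differed from WT by -0.03 to 0.03. Over all 9 members the intervals ran from -0.53 (Gzmb) to 0.25 (Gzmf), which leaves room for a 1.44-fold fall of Gzmb and a 1.19-fold rise of Gzmf. The members' median log2 difference was -0.02 and that of all genes -0.01.

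Set directly against each other, the knockouts differed in Gzmb and Nkg7, both lower in SRG3 cKO cells than in RORγt KO cells. The SRG3 cKO arrays lay below the RORγt KO arrays without overlap for both genes, as they did for 6.82% of all genes. Gzmb averaged 8.28 ± 0.24 in SRG3 cKO cells and 9.24 ± 0.27 in RORγt KO cells (SD, n = 3 each), a log2 difference of -0.96 or 1.95-fold (SE 0.15, 95% interval -1.30 to -0.63, adjusted p = 0.0148). Nkg7 averaged 8.39 ± 0.06 in SRG3 cKO cells and 9.04 ± 0.14 in RORγt KO cells, a log2 difference of -0.66 or 1.58-fold (SE 0.07, 95% interval -0.81 to -0.50, adjusted p = 0.00230). Of all genes 1.28% were called in this comparison and 0.681% called lower. These tests are also the tests of whether the 2 knockouts' differences from WT differ, since the WT arrays cancel.

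Prf1 averaged 7.89 ± 0.07 in SRG3 cKO cells and 8.21 ± 0.22 in RORγt KO cells, with a log2 difference of -0.32 (95% interval -0.54 to -0.09, adjusted p = 0.243). RORγt KO array 3 was the array that overlapped. Without it the difference was -0.44 and passed (adjusted p = 0.0349). The 7 members that did not pass had intervals from -0.54 (Prf1) to 0.21 (Gzmk), and the members' median log2 difference was -0.10, against -0.001 for all genes. That median was again the value of Gzmd, which lay at -0.003 in 1 of the fits that left out a single array. By group mean, RORγt KO was highest, WT next and SRG3 cKO lowest for 5 of the 9 members (Gzma, Gzmb, Gzmm, Prf1 and Nkg7), though only Gzmb and Nkg7 separated beyond the spread of the arrays, and for those the SRG3 cKO and WT means did not pass as different.

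**Figure D2:**
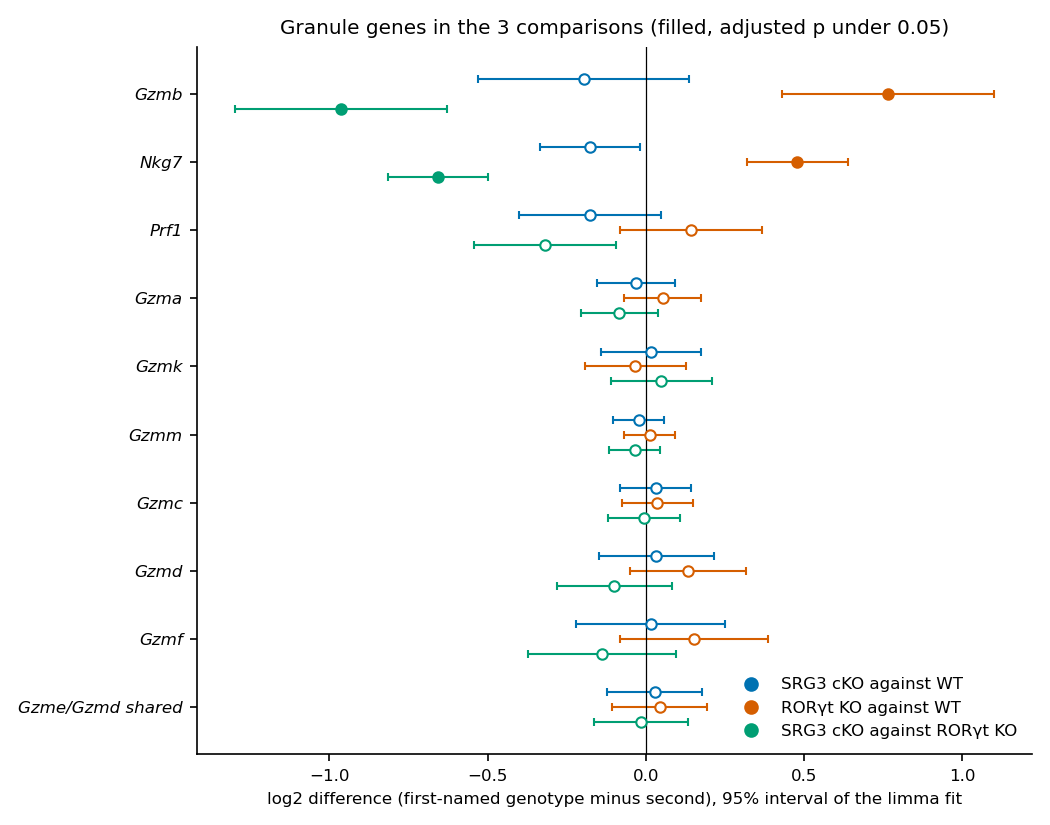
Log2 difference of each granule gene (points) with the 95% interval of the limma fit (bars) in the 3 comparisons, filled where the adjusted p was under 0.05. The 4 filled points belong to Gzmb (0.77 in RORγt KO against WT, -0.96 in SRG3 cKO against RORγt KO) and Nkg7 (0.48 and -0.66).

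The call on Gzmb in RORγt KO cells depended on how the arrays were fitted, while its direction did not. Over 20 other ways of processing, Gzmb stayed higher in RORγt KO than in WT cells by 0.61 to 0.87 on the log2 scale, but passed in 6, with adjusted p between 0.00472 and 0.192. Leaving out a single array kept the call in 1 of 9 cases, when the array was SRG3 cKO array 2, and lost it in the other 8, with the lowest difference (0.61) without RORγt KO array 2, the brightest for Gzmb. Nkg7 passed in 13 of the 20, with differences of 0.41 to 0.58 and adjusted p between 0.0118 and 0.129, and lost the call without RORγt KO array 1 or 2 or WT array 2 or 3. Without WT array 1 the adjusted p was 0.0727 for Gzmb and 0.0315 for Nkg7, and without RORγt KO array 3 it was 0.0798 and 0.0132. With the 3 arrays that lay apart all left out, Gzmb differed by 0.84 (adjusted p = 0.125) and Nkg7 by 0.58 (adjusted p = 0.0330).

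The lower level of both genes in SRG3 cKO than in RORγt KO cells held more often. Nkg7 passed in all 20 alternatives tried, with adjusted p up to 0.0450. Gzmb passed in 16 and missed without SRG3 cKO array 1, without SRG3 cKO array 3, in the fit of only the 6 arrays compared (adjusted p = 0.0729) and without the 3 arrays that lay apart (-0.95, adjusted p = 0.175).

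**Figure D3:**
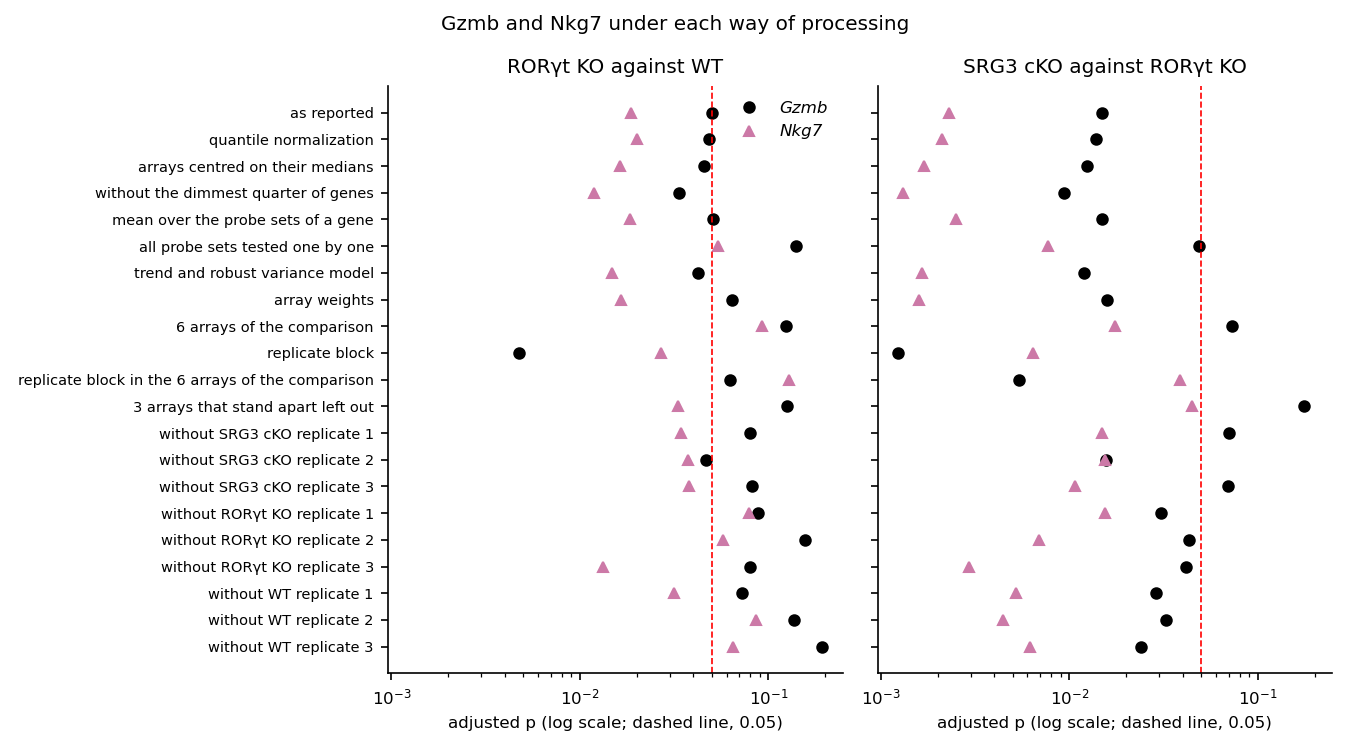
Adjusted p (log axis) of Gzmb (circles) and Nkg7 (triangles) under each way of processing, for RORγt KO against WT on the left and SRG3 cKO against RORγt KO on the right, with the threshold of 0.05 as a dashed line. In RORγt KO against WT Gzmb as reported sits on the line, and in SRG3 cKO against RORγt KO every Nkg7 point lies left of it.

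Gzmb lies at one end of a run of protease genes on chromosome 14, and its neighbours in that run were compared between the groups. In RefSeq's order the run reads Cma1, Mcpt1, Mcpt2, Mcpt9, Mcpt4, Mcpt8, Ctsg, Gzme, Gzmd, Gzmg, Gzmn, Gzmf, Gzmc and Gzmb, where the Mcpt genes and Cma1 encode mast cell proteases and Ctsg encodes cathepsin G. None of the 9 genes of the run that are not members passed in any comparison, and at an unadjusted p under 0.05 there were 0 in SRG3 cKO against WT, 1 (Mcpt9) in RORγt KO against WT and 2 (Ctsg and Mcpt2) in SRG3 cKO against RORγt KO. Over all genes 11.2%, 12.7% and 11.1% had such a p in these comparisons, and the unadjusted counts of the lists that follow stand beside these shares. The log2 difference of largest size was that of Mcpt9, -0.21 in RORγt KO against WT (adjusted p = 0.329). Gzmc, the nearest neighbour of Gzmb, had log2 levels of 4.87, 4.88 and 4.97 in the RORγt KO arrays, against 4.85, 4.80 and 4.97 in the WT arrays, which overlap. Most of these probe sets were dim: Gzmg averaged above 7.57% and Mcpt4 above 2.99% of probe sets, and Gzmn above 37.1%. How far the Gzmb difference extended along the run cannot be told from probe sets this dim.

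**Figure D4:**
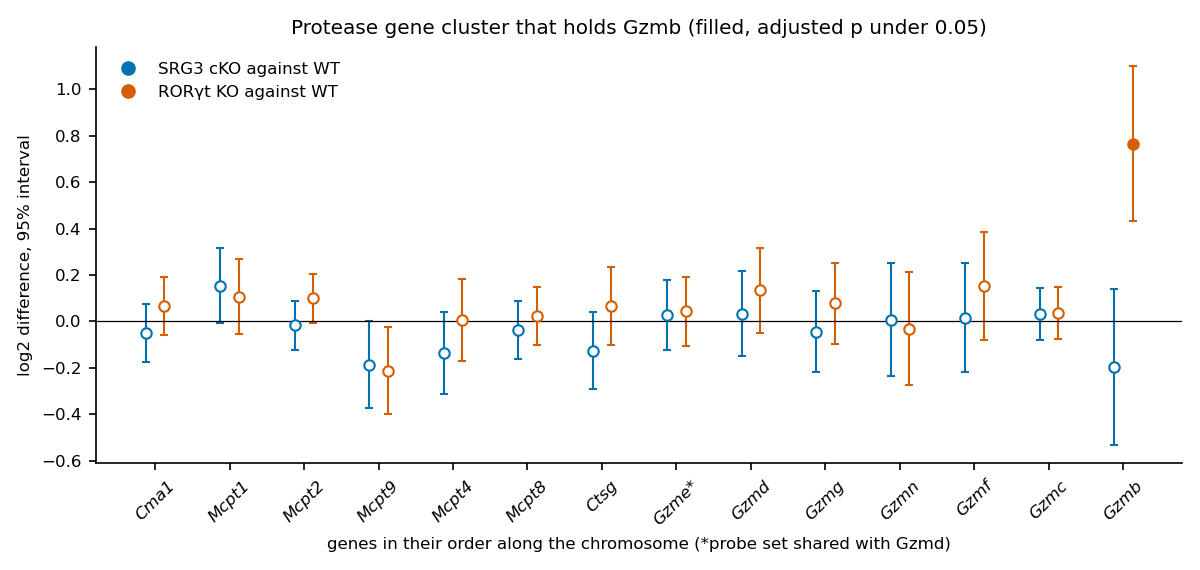
Log2 difference (points) and 95% interval (bars) in SRG3 cKO and in RORγt KO cells, each against WT, for the protease genes in their order along chromosome 14, filled where the adjusted p was under 0.05. Gzmb in RORγt KO cells (0.77) is the only filled point, and Gzmc beside it lies at 0.04.

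Genes whose products restrain, process or release granule proteases were examined next, as lists. These lists were chosen with earlier results of these data known. Of all genes 0.523% were called in SRG3 cKO against WT, 1.04% in RORγt KO against WT and 1.28% in SRG3 cKO against RORγt KO. Of the 5 measured granzyme inhibitors 2 rose in RORγt KO cells, 0 changed in SRG3 cKO cells against WT (0 also before adjustment), and the list's median log2 difference in RORγt KO cells was 0.08. Serpinb9, the serpin that inhibits granzyme B and shields the cells that make it, had log2 levels of 8.65, 8.91 and 8.75 in the RORγt KO arrays, against 8.05, 8.24 and 8.19 in the WT arrays. The RORγt KO arrays lay wholly above the WT arrays, as they did for 6.9% of all genes. The difference was 0.61 or 1.53-fold (SE 0.07, adjusted p = 0.00545). In the SRG3 cKO arrays Serpinb9 stood at 8.15, 8.21 and 8.15, within the range of the WT arrays and 0.60 below the RORγt KO mean (adjusted p = 0.00350). Serpinb6b, a related intracellular serpin, had levels of 9.15, 9.51 and 8.88 in the RORγt KO arrays, against 8.14, 8.42 and 8.43 in the WT arrays, a difference of 0.85 (adjusted p = 0.0268). Between SRG3 cKO and RORγt KO cells it did not pass (-0.66, adjusted p = 0.0652). Serpinb9b, a close relative of Serpinb9, differed from WT by 0.01 in RORγt KO cells.

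Of 19 measured genes for granule docking and release, 1 fell and 1 rose in RORγt KO cells, where 6 had a p under 0.05 before adjustment. Stx11, a syntaxin whose loss in humans impairs granule release, had log2 levels of 9.59, 9.64 and 9.59 in the RORγt KO arrays, against 10.20, 10.10 and 10.14 in the WT arrays. It fell by 0.54 on the log2 scale (adjusted p = 0.000391), and was 0.59 higher in SRG3 cKO than in RORγt KO cells (adjusted p = 0.000339). Stx7, a syntaxin of late endosomes, had levels of 8.73, 8.76 and 8.72 in the RORγt KO arrays, against 8.39, 8.39 and 8.41 in the WT arrays, a rise of 0.34 (adjusted p = 0.00318). For both genes the groups did not overlap and the arrays of each group lay close together. In 6.9% of all genes the RORγt KO arrays lay wholly above the WT arrays, as for Stx7. The share wholly below, as for Stx11, is not given here. Unc13d, which primes granules for fusion, and Rab27a, which tethers them, differed from WT by 0.03 and -0.01. Vamp7 showed the difference of largest size, 0.63, but its WT arrays ranged from 8.41 to 9.35 (adjusted p = 0.474). In SRG3 cKO cells against WT 0 of the 19 passed, and 3 had a p under 0.05 before adjustment. The difference of largest size there was that of Sytl2, 0.22 (adjusted p = 0.282).

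Among 13 genes for granule biogenesis and protease processing, 0 passed in RORγt KO cells, where 2 had a p under 0.05 before adjustment, and 1 fell in SRG3 cKO cells. In SRG3 cKO against WT 5 had such a p (Ctsc, Ctsl, Igf2r, Ap3b1 and Calr), beside 11.2% of all genes. Between the knockouts 3 did (Ctsl, Ctsw and Igf2r). Igf2r encodes the cation-independent mannose 6-phosphate receptor, which carries granzymes to the granule. Its log2 level was 8.55, 8.43 and 8.47 in the SRG3 cKO arrays, against 8.96, 8.96 and 9.24 in the WT arrays, a fall of 0.57 (adjusted p = 0.0143). It was also 0.55 lower in SRG3 cKO than in RORγt KO cells (adjusted p = 0.00642), so the RORγt KO and WT arrays stood together for this gene. Srgn, for the proteoglycan serglycin that binds granzymes, differed from WT by 0.00 in RORγt KO cells, Ctsc, for the protease that activates them, by -0.10, and Lamp1 by -0.11. Ctsw, a cathepsin of cytotoxic lymphocytes, was 0.55 higher in RORγt KO than in WT cells without passing (adjusted p = 0.157). Of 5 measured substrates of granzyme B, none passed in any comparison, with 1, 2 and 2 at an unadjusted p under 0.05 in SRG3 cKO against WT, RORγt KO against WT and SRG3 cKO against RORγt KO. Bid lay at -0.14 (adjusted p = 0.211) and Casp8 at 0.25 (adjusted p = 0.178) in RORγt KO against WT.

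Killing through death receptors is the other route of cytotoxic lymphocytes. Of 8 genes for its ligands and receptors 2 were lower in RORγt KO cells and passed, and 4 had a p under 0.05 before adjustment. Tnf had log2 levels of 10.23, 10.06 and 10.38 in the RORγt KO arrays, against 10.97, 11.08 and 11.08 in the WT arrays, a fall of 0.82 (adjusted p = 0.00135). Lta, which encodes lymphotoxin α, fell by 0.47 (adjusted p = 0.0379). Fasl and Tnfsf10, for the ligands FasL and TRAIL, differed from WT by 0.05 and 0.15 without passing. Tnf (0.86), Lta (0.72) and Tnfrsf10b (0.30) were higher in SRG3 cKO than in RORγt KO cells, and against WT none of the 8 passed in SRG3 cKO cells, with 1 at an unadjusted p under 0.05. Gzmb and Nkg7 were higher, and Tnf and Lta lower, in the same RORγt KO arrays.

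Of 16 measured transcription factors of cytotoxic lymphocytes, only 1 passed in RORγt KO cells, where 6 had a p under 0.05 before adjustment. The gene that passed was Id2, an inhibitor of E proteins, which fell by 0.32 (adjusted p = 0.0140). Tbx21 and Eomes, for the T-box factors T-bet and EOMES, both differed from WT by 0.04 in RORγt KO cells. Runx3, which encodes a Runx factor of cytotoxic T cells, had log2 levels of 8.59, 8.44 and 8.40 in the RORγt KO arrays, against 8.22, 8.04 and 8.13 in the WT arrays. The RORγt KO arrays lay wholly above, as for 6.9% of all genes, but the difference of 0.35 did not pass (adjusted p = 0.0806). Prdm1, for Blimp-1, differed by -0.01 and Zbtb7b, for the CD4-lineage factor ThPOK, by -0.06. None of the 16 passed in SRG3 cKO against WT, with 6 at an unadjusted p under 0.05, Tbx21 among them at -0.24 (adjusted p = 0.315) and Stat4 at 0.29 (adjusted p = 0.249). Batf was higher in SRG3 cKO than in RORγt KO cells by 0.33 (adjusted p = 0.0427), and Runx1 lay at 0.38 without passing (adjusted p = 0.0577). Between the knockouts 7 of the 16 had a p under 0.05 before adjustment.

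Of 20 receptors and chemokines of cytotoxic lymphocytes, 3 rose and 1 fell in RORγt KO cells, where 10 had a p under 0.05 before adjustment. Klrd1, for the NK receptor chain CD94, had log2 levels of 7.16, 6.92 and 6.53 in the RORγt KO arrays, against 5.99, 5.84 and 6.04 in the WT arrays. The RORγt KO arrays lay wholly above, as for 6.9% of all genes, and the difference was 0.91 or 1.88-fold (adjusted p = 0.0202). The SRG3 cKO level was lower than that in RORγt KO cells by a log2 difference of -1.11 (adjusted p = 0.00505). Ly6c2 rose by 0.63 (adjusted p = 0.0202) and Il12rb2, for a subunit of the IL-12 receptor, by 1.46 (adjusted p = 0.000382). Crtam, a receptor found on cytotoxic CD4 and CD8 T cells, fell by 0.62 (adjusted p = 0.0250).

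In SRG3 cKO cells against WT 1 of these 20 rose and 1 fell, and 7 had a p under 0.05 before adjustment. Il18r1, for the IL-18 receptor, rose by 0.63 (adjusted p = 0.00375). Ccl3, which encodes the chemokine MIP-1α, had log2 levels of 9.24, 9.16 and 9.33 in the SRG3 cKO arrays, against 10.41, 10.01 and 10.28 in the WT arrays, a fall of 0.99 (adjusted p = 0.0128). In SRG3 cKO against RORγt KO 8 of the 20 were lower (Klrd1, Klrc1, Il12rb2, Ly6c2, Cxcr3, Ccl3, Ccl4 and Ccl5) and 2 higher (Cd226 and Il18r1), with a median log2 difference of -0.13. Of all genes 1.28% were called there and 0.681% called lower, and the list was chosen with earlier results of these data known. Before adjustment 13 of the 20 had a p under 0.05 in that comparison.

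**Figure D5:**
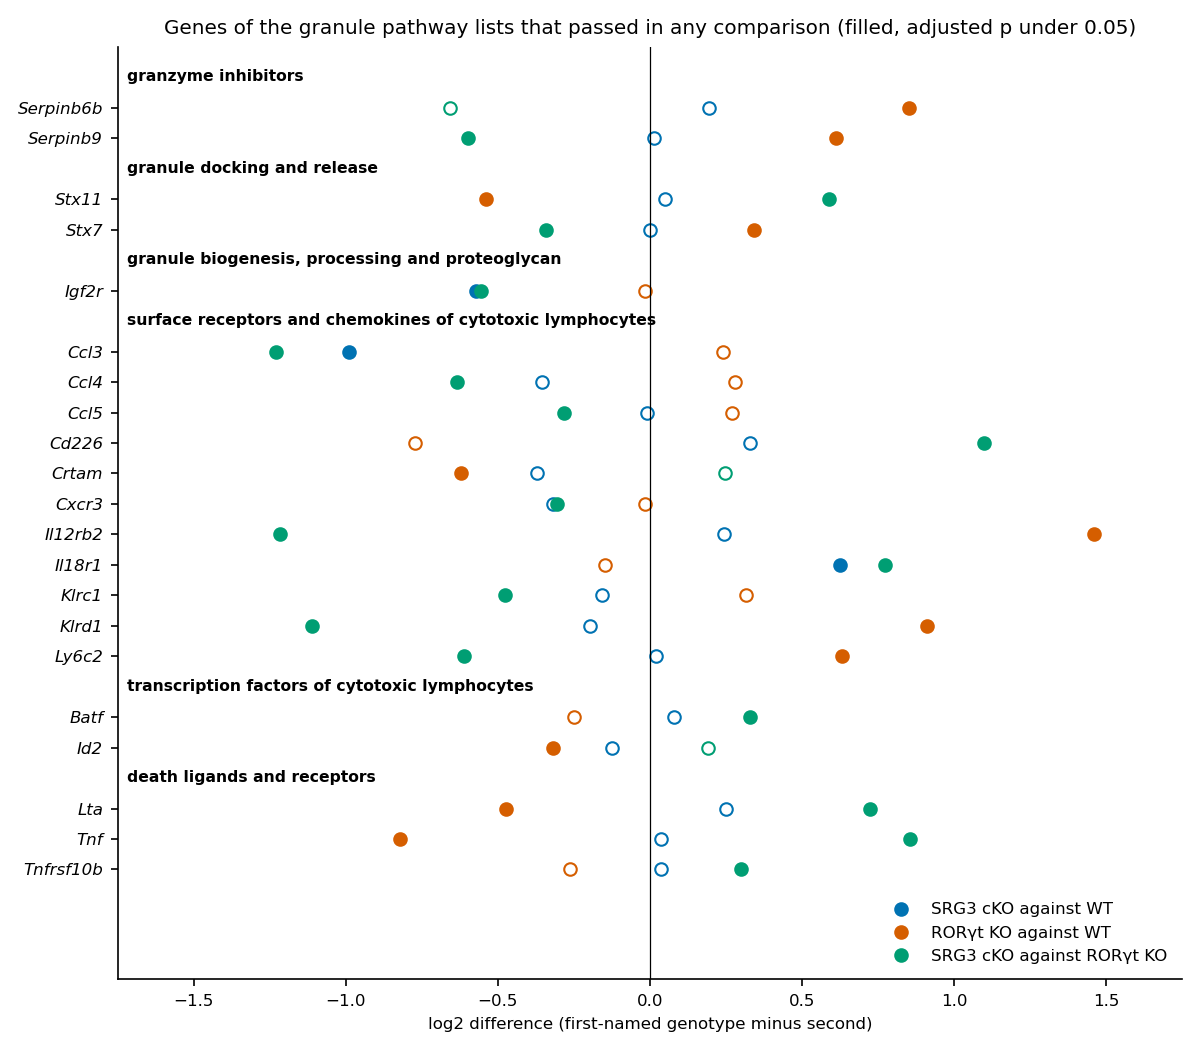
Log2 differences in the 3 comparisons for each gene of the granule pathway lists that passed in at least 1 of them, filled where it passed. Serpinb9, Serpinb6b, Stx7, Klrd1, Il12rb2 and Ly6c2 lie to the right and Stx11, Crtam, Id2, Tnf and Lta to the left in RORγt KO against WT.

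The calls on Serpinb9, Stx11, Stx7, Il12rb2 and Tnf in RORγt KO against WT held whichever array was left out, and also without the 3 arrays that lay apart. Others rested on more of the arrays. Klrd1 and Id2 lost the call in 4 of the 9 single omissions (RORγt KO array 1 or 2, or WT array 2 or 3), Ly6c2 in 3 (RORγt KO array 1 or 2, or WT array 2) and Crtam in 5 (those named for Klrd1, and SRG3 cKO array 3). Serpinb6b lost it in 8, all but the fit without RORγt KO array 3, and Lta in all 9. In SRG3 cKO against WT, Igf2r lost the call without any 1 of the SRG3 cKO arrays, Ccl3 without any of these or WT array 3, and Il18r1 in none of the 9. Without the 3 arrays that lay apart, none of these 3 passed there (adjusted p = 0.151, 0.190 and 0.151 for Igf2r, Ccl3 and Il18r1). In that same fit SRG3 cKO and RORγt KO cells still differed in Stx11, Klrd1, Il12rb2 and Tnf, and no longer passed in Serpinb9 (adjusted p = 0.0821), Stx7 (0.0715), Lta (0.0712), Igf2r (0.0807), Il18r1 (0.0547), Ccl3 (0.0732) or Ly6c2 (0.0781). Between the knockouts Ly6c2 also lost the call in 5 of the 9 single omissions (SRG3 cKO array 2 or 3, or any RORγt KO array). Among genes that passed only between the knockouts, Ccl5 lost the call in all 9 single omissions, Batf and Cxcr3 in 8, Tnfrsf10b in 7, Klrc1 and Ccl4 in 4 and Cd226 in 3. None of these 7 passed without the 3 arrays that lay apart (adjusted p of 0.0677 for Klrc1 to 0.203 for Cd226), so that of the 10 receptors and chemokines called between the knockouts Klrd1 and Il12rb2 were left.

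Markers of other lymphocytes that make granule proteins were set beside these results. The NK markers Klrd1 and Klrk1 were counted with the receptors above, and Klrd1 passed there. Of 12 other markers of CD8, NK and γδ T cells 5 were measured and none passed in any comparison. At an unadjusted p under 0.05 there were 1, 0 and 0 of these in SRG3 cKO against WT, RORγt KO against WT and SRG3 cKO against RORγt KO. The 2 CD8 genes had array means of 7.98 to 8.05 on the log2 scale in RORγt KO cells and 7.97 to 8.07 in WT cells, and Cd8a differed by -0.08. The NK markers (4 of 8 measured: Ncr1, Klrb1c, Klrk1 and Klrd1, all dimmer on average than the median probe set) had array means of 5.92 to 6.02 in SRG3 cKO, 6.25 to 6.40 in RORγt KO and 6.02 to 6.16 in WT cells. This mean was higher in RORγt KO arrays, as Gzmb and Nkg7 were, and Klrd1 was the only gene of the 4 that passed: Ncr1 differed from WT by -0.03, Klrb1c by 0.05 and Klrk1 by 0.05. Of 7 measured B cell and myeloid markers and 6 mast cell and basophil markers none passed in any comparison, with 1 or 0 genes at an unadjusted p under 0.05 in each. The part of such cells in the Gzmb and Nkg7 differences was not tested.

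Across the 9 arrays the levels of Gzmb and Nkg7 moved together (Pearson r = 0.914), and those of Prf1 with Nkg7 (0.772) and with Gzmb (0.726). After each array's group mean was subtracted, r was 0.338, 0.538 and 0.375 for the same pairs, lower than across all arrays. The arrays are few and fall into groups, so these values describe these arrays alone. Over all genes the closest in pattern to Gzmb were Map7d1 (r = 0.987), Chfr (0.970), Map2k4 (0.967), Bag3 (0.966) and the microRNA gene Mir1948 (0.966). The closest to Nkg7 were Inhba (0.982), Lgals3 (0.980), Mpzl3 (0.978), Akr1b8 (0.973) and Ifi27l2b (0.973). These genes were picked over the same arrays, so their own differences between the groups follow in part from that choice and are not given.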

How the data were processed

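RNA of Th17 cultures was measured on 9 GeneChip arrays, 3 each of SRG3 cKO, RORγt KO and WT, with 41345 probe sets. The deposited values are log2 intensities, per the labels and the range of the values; background correction, probe summary and normalization by the authors are not given in the sources used here. The number of arrays limits the precision. A single gene symbol was annotated to 23521 of them, more than 1 symbol to 1814 and no symbol to 16010. Those with a single symbol were used, with symbols updated by gene ID through RefSeq (23328 matched), and for a gene with several probe sets (1082 genes) the one of highest mean. This left 22180 genes. Results that need 1 item are not reported here.

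All 9 arrays were fitted together with limma 3.58.1 in R 4.3.3 (lmFit and eBayes), with Benjamini-Hochberg adjustment over all 22180 genes in each comparison and a threshold of 0.05. The probe set shared by Gzme and Gzmd was tested in a fit of all probe sets. SE and 95% intervals come from the fit. The granule genes and the 13 gene lists were chosen with earlier results of these data known. Genes to be named were the 10 granule genes, every list gene that passed, preset genes of each list, its member of largest difference in each comparison (a few of these that did not pass are given in counts only), and the 5 genes most correlated with each member that passed. Promoters were searched with Python 3.11.15 and aligned with Biopython 1.88.

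Arrays with the same number were tested for pairing, through the correlation of their deviations from the group means. It was 0.287, 0.186 and 0.116 for SRG3 cKO and WT, positive in each case, though the labels state no pairing. The SE, intervals and adjusted p given for every comparison come from the fit without pairing. The replicate number as a block was fitted only as an alternative. For RORγt KO and WT the correlation was 0.215, -0.00527 and 0.186, and between the 2 knockouts 0.223, -0.00544 and 0.137. Both were thus near 0 for replicate 2 and positive for the others, which does not decide whether the arrays were paired. The choice matters for Gzmb in RORγt KO against WT, where the alternative with the block gave an adjusted p of 0.00472. Alternatives covered quantile normalization, centring, a filter on dim genes, array weights, other probe sets for a gene, another variance model, the replicate number as a block, fits of only the arrays compared, and leaving out each array. Leaving out together the 3 arrays that lay apart was chosen after seeing the data.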

Additional observations from a re-analysis of the deposited data

How the results depend on the processing

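Of the 27 differences of the 9 granule genes, 4 passed, and none of the 4 turned direction in any of the 20 alternatives. Of the 23 that did not pass, 22 passed in none. The exception was Prf1 in SRG3 cKO against RORγt KO, which passed without RORγt KO array 3.

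The count of granule genes changed in RORγt KO against WT (2) was 1 with the mean over the probe sets of a gene, 1 with array weights, 1 with the 3 arrays that lay apart left out, 0 with all probe sets tested one by one, 0 in the 6 arrays compared, 0 with the replicate block in those 6 arrays, and 0 to 2 when 1 array was left out. In SRG3 cKO against RORγt KO (2) it was 1 in the 6 arrays, 1 without the 3 arrays that lay apart, and 1 to 3 when 1 array was left out. In SRG3 cKO against WT it was 0 in every alternative, the replicate block included. The block in all 9 arrays left the granule calls at 2 in both other comparisons, with an adjusted p of 0.00472 for Gzmb in RORγt KO against WT.

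Over all genes the count in SRG3 cKO against WT (116) was 195 with the replicate block, 125 higher and 70 lower, 48 over all probe sets, 13 in the 6 arrays, 32 there with the block, 1 without the 3 arrays that lay apart, and 18 to 87 without 1 array. In RORγt KO against WT (230) it was 374 with the block, 128 over all probe sets, 43 in the 6 arrays, 63 there with the block, 464 without the 3 arrays that lay apart, and 45 to 322 without 1 array. In SRG3 cKO against RORγt KO (283) it was 142 in the 6 arrays, 131 there with the block, 39 without the 3 arrays that lay apart, and 138 to 261 without 1 array. The cause of these moves was not tested. The filter on dim genes gave no value for the dimmest members.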

Other observations

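The deposited values repeat exactly between arrays for many probe sets: 19329 of 41345 (46.8%) hold at least 1 value that recurs among the 9 arrays. Among the granule genes, Gzmm had 5 distinct values over the 9 arrays, with 1 value present in 5 of them, Gzmc and Gzmf had 8 distinct values each, and the probe set shared by Gzme and Gzmd had 7. Gzma, Gzmb, Gzmd, Gzmk, Prf1 and Nkg7 had 9 distinct values.

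After group means were subtracted, Gzmc and Gzmf had r = 0.846, and Prf1 and Gzmf had -0.913. These are descriptions of 9 arrays, with no test.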
